A study of Oryza sativa with 18 samples.

Results

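Mock roots of rice harvested 14 days post treatment (dpt) were compared with mock roots harvested at 7 dpt, which asks what time alone did to roots that had received no auxin analogue. The comparison holds 6 of the 18 RNA-seq libraries of the series, 3 of mock 14 dpt and 3 of mock 7 dpt roots, and was chosen by label alone. All plants were Oryza sativa cv. Nipponbare seedlings, 7 days old when the whole plants were soaked for 1 h, and the mock soak was the same solution as in the treated plants but without 2,4-D. The other 12 libraries are 3 each of roots treated with 50 µM 2,4-D at 14, 7 and 1 dpt, and 3 of mock roots at 1 dpt. All seedlings grew on plates of low-nitrogen Fahraeus medium, and whole roots were collected, so that fewer cells of a type and less RNA per cell cannot be told apart. The 2,4-D samples of 7 and 14 dpt came from roots that carried nodule-like structures (NLS). The labels put the 6 mock libraries compared here in the same sequencing batch as the 2,4-D libraries of those ages. Mock 1 dpt roots belong to a different batch, and wherever their levels are given, age and batch cannot be told apart.

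As background, young roots take up nitrate through transporters whose expression follows nitrogen supply, and they lay down lignin, suberin and secondary cell walls as their vascular and barrier tissues mature. Cytokinin signals travel from histidine kinases to response regulators, and the type-A response regulators are both early targets and brakes of that pathway. Chitinases, WRKY transcription factors, wall-associated kinases and jasmonate-ZIM-domain repressors are familiar components of plant defence and wounding responses.

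The 6 mock libraries held between 11195978 and 17582306 counts each, within the 9416952 to 18057748 counts of all 18 libraries. A count of 3, used as the detection floor, corresponds to between 0.184 and 0.281 CPM (counts scaled to the library total) in these 6 libraries, for counting error only. The deposited table lists 66860 transcripts, of which 25229 had no count in any of the 6. Names were at hand for 1383 of the 13218 transcripts tested (10.5%), mostly by their closest Arabidopsis protein, and nearly all of those names come from the study's list of transcripts that differed between 2,4-D and mock roots at 7 dpt. That list was drawn with the same mock 7 dpt libraries used here, so a named transcript tended to be high or low in them already, and the direction in which named transcripts moved is not independent evidence.

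No transcript passed the test between mock 14 dpt and mock 7 dpt roots. The test asked for an adjusted p under 0.05 and at least a 2-fold difference among the 13218 transcripts with at least 10 CPM in at least 2 of the 6 libraries. The edgeR quasi-likelihood test called 0 of them (0%), and its lowest Benjamini-Hochberg adjusted p was 0.998. At an unadjusted p under 0.05 it held 391 transcripts (2.96%), 244 of them higher (1.85%) and 147 lower (1.11%) at 14 dpt. limma-voom also called 0, with 335 at an unadjusted p under 0.05. DESeq2 called 19 (0.144%), 10 higher and 9 lower at 14 dpt, out of 659 at an unadjusted p under 0.05 (4.99%).

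The intervals bound the differences that remain possible. The median log2 fold change over all tested transcripts was 0.01, with a median standard error of 0.26. For 8240 transcripts (62.3%) the 95% interval lay within a 2-fold difference in either direction, and for 11834 (89.5%) within 4-fold. Transcripts with more counts were bounded more tightly: the 2-fold band held the whole interval for 47.3% of the 3768 transcripts under 20 CPM on average, 66.9% of the 6826 between 20 and 100 CPM, and 72.1% of the 2624 at 100 CPM or more. A fold change of 2 or more was fitted for 709 transcripts, 575 of them higher and 134 lower at 14 dpt, none of them past the adjusted threshold.

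**Figure D1:**
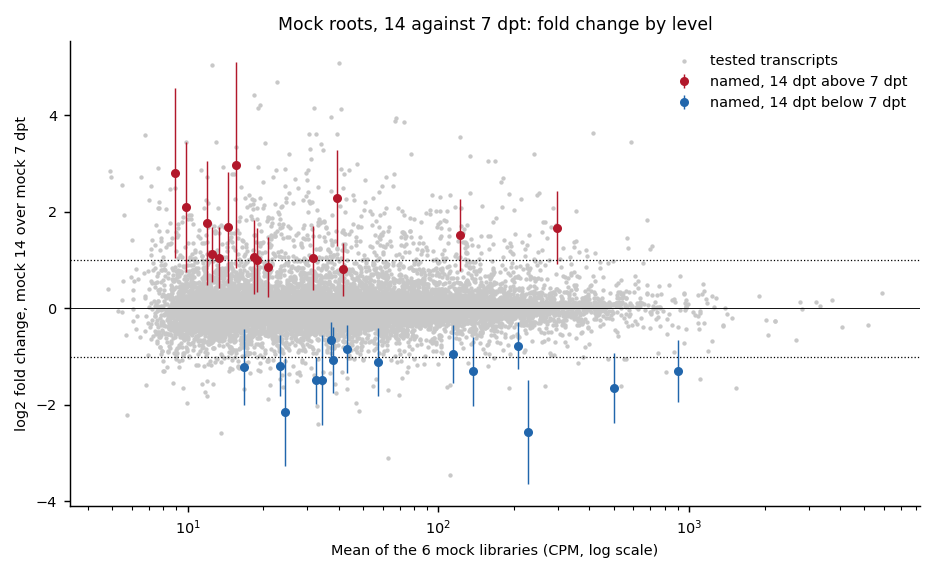
Log2 fold change, mock 14 dpt over mock 7 dpt roots, against the mean level of the 6 mock libraries in CPM on a log scale. Grey points are the 13218 tested transcripts, coloured points with 95% intervals are 15 named transcripts with all 14 dpt libraries above and 15 with all below those of 7 dpt, and dotted lines mark 2-fold; none passed the adjusted threshold in edgeR.

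Libraries of one age were no more alike than some libraries of different ages. Over the tested transcripts, the correlation of log2 CPM was 0.796 to 0.893 among the 3 mock 14 dpt libraries, 0.855 to 0.911 among the 3 mock 7 dpt libraries and 0.760 to 0.940 between the ages. The biological coefficient of variation was 0.414 in mock 14 dpt and 0.362 in mock 7 dpt roots, the highest of the 6 groups of the series. The other groups had 0.350 (2,4-D 14 dpt), 0.327 (2,4-D 7 dpt), 0.290 (mock 1 dpt) and 0.269 (2,4-D 1 dpt). Mock 14 dpt replicate 2 stood apart: 514 transcripts were over 4-fold above and 31 over 4-fold below the mean of the other 2 libraries of its group. The other 5 libraries had between 38 and 194 above and between 52 and 298 below. On the first principal component, which held 44.0% of the variance, this library lay at -81.8, mock 14 dpt replicates 1 and 3 lay at -1.82 and 30.6, and the mock 7 dpt libraries lay at 43.8, -9.84 and 19.1. The first component therefore separated that single library from the rest and did not separate the ages.

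**Figure D2:**
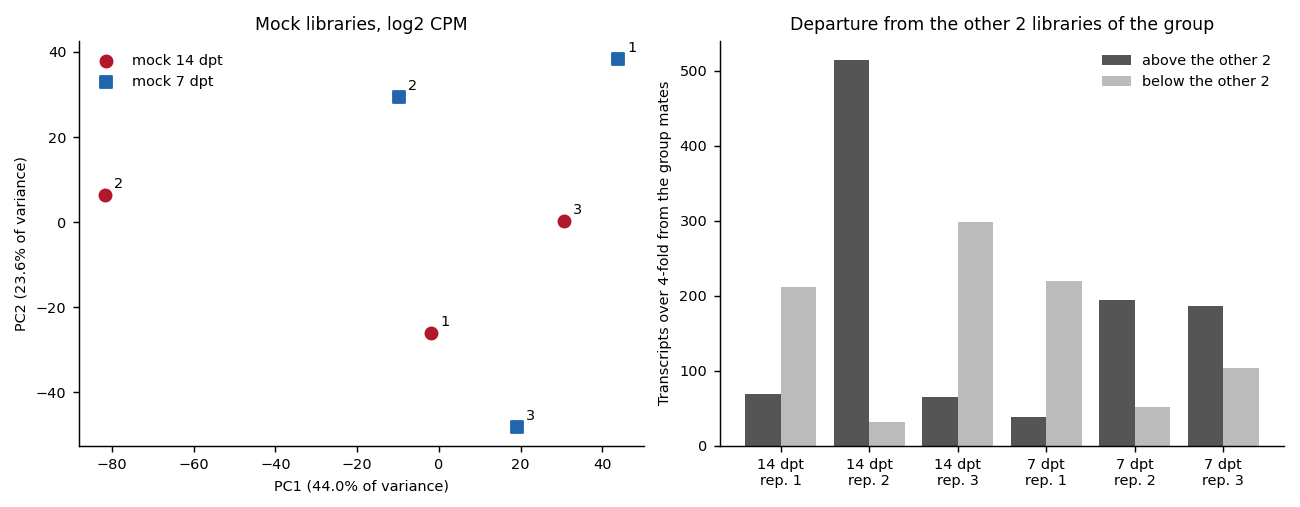
Left, the 6 mock libraries on the first and second principal components of log2 CPM (44.0% and 23.6% of the variance). Right, for each library the number of transcripts over 4-fold above or below the mean of the other 2 libraries of its group, with mock 14 dpt replicate 2 at 514 above.

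The transcripts high in mock 14 dpt replicate 2 include defence and stress genes, picked here after their values were seen. Jasmonate-ZIM-domain protein 1 (LOC_Os03g08320.1), a repressor of jasmonate responses, was at 84.5, 840 and 36 CPM in mock 14 dpt roots, against 35.8, 100 and 49.7 CPM in mock 7 dpt roots. Senescence-associated gene 21 (LOC_Os01g21250.1), whose Arabidopsis namesake responds to oxidative stress, had 120, 783 and 66.0 CPM in mock 14 dpt roots, against 43.9, 127 and 63.8 CPM at 7 dpt. For the transcription factor WRKY51 (LOC_Os05g46020.1) the levels were 25.8, 165 and 13.9 CPM in mock 14 dpt roots and 8.59, 30.3 and 12.2 CPM in mock 7 dpt roots. In all 3 the second 14 dpt library was far above its mates, the second 7 dpt library was the highest of its own group, and the groups overlapped. Without the second 14 dpt library the log2 fold change of jasmonate-ZIM-domain protein 1 (LOC_Os03g08320.1) was -0.04, against 2.37 with it.

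For 439 transcripts (3.32%) every mock 14 dpt library was above every mock 7 dpt library, and for 384 (2.91%) every one was below, 823 in all (6.23%). With scaling factors taken over all 18 libraries the split was 376 above (2.84%) and 451 below (3.41%), so the order of these shares depends on the scaling. From the transcripts with a name, the 15 with the lowest p in each of these directions are described here. Every adjusted p given by edgeR for them was 0.998. Over the alternatives other than DESeq2, the adjusted p of every transcript described with a fold change lay between 0.278, for basic chitinase (LOC_Os03g04060.1) without mock 14 dpt replicate 3, and 1.000. Of the 15 above, 14 belong to the transcripts higher in 2,4-D than in mock roots at 7 dpt in the study's list, and all 15 below belong to those lower in 2,4-D roots.

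By p in edgeR, a transcript named as a nitrate transporter and a metallothionein came first among the named transcripts with higher levels at 14 dpt. The first (LOC_Os02g38230.1) is a nitrate transmembrane transporter by name alone, and whether its protein carries nitrate was not tested. It was at 58.3, 97.7 and 40.4 CPM in mock 14 dpt roots, against 12.9, 18.0 and 9.46 CPM in mock 7 dpt roots. Its log2 fold change was 2.28 ± 0.41 (SE) with a 95% interval of 1.29 to 3.27. Its lowest 14 dpt library was more than 2-fold above its highest 7 dpt library, and DESeq2 called it with an adjusted p of 0.000387. In the other 17 settings tried for LOC_Os02g38230.1 the adjusted p ranged between 0.280 and 1.000. In mock 1 dpt roots LOC_Os02g38230.1 had 66.2, 94.2 and 105 CPM, so that of the 3 ages 7 dpt had the lowest levels. The transcript was chosen for low levels in mock 7 dpt roots, so this order is not independent evidence.

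Metallothionein 2A (LOC_Os12g38051.1), a small cysteine-rich protein that binds metal ions, had 338, 628 and 393 CPM in mock 14 dpt roots, against 163, 104 and 160 CPM in mock 7 dpt roots, with a log2 fold change of 1.67 ± 0.31 (SE; 95% interval 0.91 to 2.42). It was the one named transcript of the 15 that the study's list gives as lower in 2,4-D roots. A second transcript of that name, LOC_Os01g05650.1, stood at 143, 738 and 315 CPM in mock 14 dpt roots and 99.6, 143 and 195 CPM in mock 7 dpt roots. Those groups overlapped, with the second 14 dpt library again the highest. Reads may be shared between such similar genes, so their separate levels are uncertain.

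Ribose 5-phosphate isomerase (LOC_Os04g24140.1), an enzyme of the pentose phosphate pathway, had 225, 192 and 126 CPM in mock 14 dpt roots, against 68.4, 76.8 and 44.4 CPM in mock 7 dpt roots (log2 fold change 1.52, interval 0.78 to 2.25). A peptide transporter (LOC_Os12g44110.2) was measured at 14.9, 19.0 and 17.3 CPM in mock 14 dpt roots, against 6.59, 9.46 and 7.5 CPM at 7 dpt (log2 fold change 1.12, interval 0.55 to 1.69). DESeq2 called both, with adjusted p of 0.00871 for LOC_Os04g24140.1 and 0.0393 for LOC_Os12g44110.2. Both groups of libraries were tight for the peptide transporter, whose 14 dpt levels all lay above the highest 7 dpt level.

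Wall and defence proteins make up a further share of the 15. Basic chitinase (LOC_Os03g04060.1), which cleaves the chitin of fungal walls, was at 16.6, 26.4 and 3.69 CPM in mock 14 dpt roots, against 1.74, 2.33 and 2.62 CPM in mock 7 dpt roots. An inhibitor of invertase or pectin methylesterase (LOC_Os01g20980.1) was at 22.7, 19.3 and 5.97 CPM in mock 14 dpt roots, against 3.94, 4.54 and 2.62 CPM in mock 7 dpt roots. A glycosyl hydrolase (LOC_Os01g71860.1) had 57.0, 19.7 and 6.40 CPM in mock 14 dpt roots and 2.39, 2.21 and 6.09 CPM in mock 7 dpt roots. In each the third 14 dpt library lay close to the 7 dpt range while the first and second lay well above it, and the intervals were wide, 1.04 to 4.57 on the log2 scale for LOC_Os03g04060.1. A serine/threonine receptor-like kinase (LOC_Os07g35330.1) was more even, at 16.8, 23.2 and 14.1 CPM in mock 14 dpt roots and 8.39, 10.1 and 7.68 CPM in mock 7 dpt roots.

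The remaining 7 named transcripts had log2 fold changes of 0.81 for chloroplast RNA-binding protein 29 (LOC_Os07g43810.1) to 1.77 for a RING finger protein (LOC_Os03g04890.1). Chloroplast RNA-binding protein 29 (LOC_Os07g43810.1) was at 54.4, 48.1 and 56.8 CPM in mock 14 dpt roots, against 24.0, 39.4 and 27.5 CPM at 7 dpt. The group also has an alpha/beta-hydrolase (LOC_Os02g32970.1, log2 fold change 1.04), a zinc-binding dehydrogenase (LOC_Os09g32570.1, 1.00), a cupin (LOC_Os10g28350.1, 1.68), an acyl-transferase of the HXXXD type (LOC_Os08g02030.1, 1.06) and a DUF567 protein (LOC_Os07g47540.1, 0.85). In 12 of the 15 transcripts the third library was the lowest of the 14 dpt group.

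O-methyltransferases, enzymes that add methyl groups to phenolic and related compounds, led the transcripts with lower levels at 14 dpt. Of 5 transcripts with this name, 4 had every 14 dpt library below every 7 dpt library, against 2.91% of all tested transcripts. These 4 are in the study's list as lower in 2,4-D roots, where 13.4% of tested members had all 14 dpt libraries below. Names were at hand mostly for transcripts of that list, so the 5 do not stand for the whole family. LOC_Os05g43940.1 was at 18.0, 13.9 and 19.4 CPM in mock 14 dpt roots, against 49.8, 52.8 and 41.6 CPM in mock 7 dpt roots. Its log2 fold change was -1.49 ± 0.20 (SE; 95% interval -1.98 to -1.0), and its unadjusted p of 0.000259 in edgeR was the lowest of all 13218 transcripts. DESeq2 gave LOC_Os05g43940.1 an adjusted p of 1.67e-06, and the other settings gave 0.280 to 1.000. The libraries of each age were close together for this transcript, and the ages were well apart.

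The 2 most abundant O-methyltransferases had the same order of libraries at 14 dpt. LOC_Os11g20160.1 had 375, 489 and 712 CPM in mock 14 dpt roots, against 1281, 1268 and 1310 CPM in mock 7 dpt roots (log2 fold change -1.29, interval -1.93 to -0.65). For LOC_Os11g20090.1 the levels were 155, 237 and 332 CPM in mock 14 dpt roots and 810, 685 and 777 CPM in mock 7 dpt roots (log2 fold change -1.65, interval -2.37 to -0.93). The lowest of the group, LOC_Os11g12760.1, had 7.96, 4.22 and 14.8 CPM in mock 14 dpt roots, against 42.0, 44.3 and 34 CPM in mock 7 dpt roots (log2 fold change -2.15, interval -3.27 to -1.03). DESeq2 called all 3, with adjusted p of 0.00577 for LOC_Os11g20160.1, 0.000407 for LOC_Os11g20090.1 and 0.00776 for LOC_Os11g12760.1. In all 3 the third 14 dpt library was the highest of its group and thus nearest to 7 dpt. The remaining transcript, O-methyltransferase 1 (LOC_Os08g06100.1), overlapped between the ages. Since similar genes may share reads, the separate levels of these family members are uncertain.

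These 4 O-methyltransferases were at their highest at 7 dpt among the 3 mock ages. All 4 were chosen for high levels in mock 7 dpt roots, both by the study's list and by the order used here. The peak at 7 dpt and the low 2,4-D levels are therefore not independent evidence, and 1 dpt is another batch. In mock 1 dpt roots LOC_Os05g43940.1 had 24.0, 19.7 and 8.15 CPM, LOC_Os11g20160.1 had 390, 278 and 223 CPM, and LOC_Os11g12760.1 had 4.05, 4.50 and 6.12 CPM. For these 3 every 1 dpt library was below every 7 dpt library. In 2,4-D roots they were low at both ages, with means of 0.412 CPM at 14 dpt and 0.498 CPM at 7 dpt for LOC_Os05g43940.1 and of 49.5 CPM at 14 dpt and 49.9 CPM at 7 dpt for LOC_Os11g20160.1.

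Other transcripts lower at 14 dpt were a BURP domain protein, peptidases by name and an enzyme of the lignin branch. A BURP domain protein (LOC_Os06g19800.1), of a plant-specific family, was at 28.9, 75.4 and 93.9 CPM in mock 14 dpt roots, against 333, 390 and 450 CPM in mock 7 dpt roots, with a log2 fold change of -2.57 (interval -3.65 to -1.48) and a DESeq2 adjusted p of 5.01e-05. For LOC_Os06g19800.1 the highest 14 dpt library was more than 2-fold below the lowest 7 dpt library. Xylem cysteine peptidase 1 (LOC_Os02g48450.1), named for a protease of developing xylem in Arabidopsis, had 23.3, 44.0 and 41.3 CPM in mock 14 dpt roots and 91.9, 79.9 and 63.6 CPM in mock 7 dpt roots (log2 fold change -1.12). Cinnamoyl CoA reductase 1 (LOC_Os09g09270.1), which opens the branch of phenylpropanoid metabolism leading to lignin, was at 6.01, 11.6 and 12.7 CPM in mock 14 dpt roots, against 22.0, 20.7 and 27.5 CPM in mock 7 dpt roots (log2 fold change -1.21). A peptidase of the M20 family (LOC_Os03g62060.1) had 75.6, 53.4 and 109 CPM in mock 14 dpt roots and 162, 229 and 198 CPM in mock 7 dpt roots (log2 fold change -1.30). In these 4 transcripts all the 14 dpt libraries lay below the 7 dpt libraries, and DESeq2 also called the peptidase LOC_Os03g62060.1, with an adjusted p of 0.0434.

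Transporters and metabolic enzymes fill the rest. Peptide transporter PTR2 (LOC_Os05g34030.1) was at 26.5, 17 and 29.8 CPM in mock 14 dpt roots, against 39.9, 51.0 and 63.1 CPM in mock 7 dpt roots, opposite in sign to the peptide transporter LOC_Os12g44110.2 above. A transporter related to nodulin MtN21 (LOC_Os07g34110.1) was at 66.2, 83.8 and 85.0 CPM in mock 14 dpt roots and 140, 113 and 199 CPM in mock 7 dpt roots. A nucleoside transporter (LOC_Os07g37110.1) had one of the narrower intervals, a log2 fold change of -0.66 with bounds of -1.04 and -0.28. The others were a terpenoid cyclase (LOC_Os02g26014.1, log2 fold change -1.19), a BNR/Asp-box repeat protein (LOC_Os07g33224.1, -0.85), a phosphorylase (LOC_Os06g02210.1, -0.78) and response regulator 9 (LOC_Os12g04500.1), taken up below with its family. In 12 of the 15 the third library was the highest of the 14 dpt group, so that this library was nearest to 7 dpt in most transcripts of both directions.

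**Figure D3:**
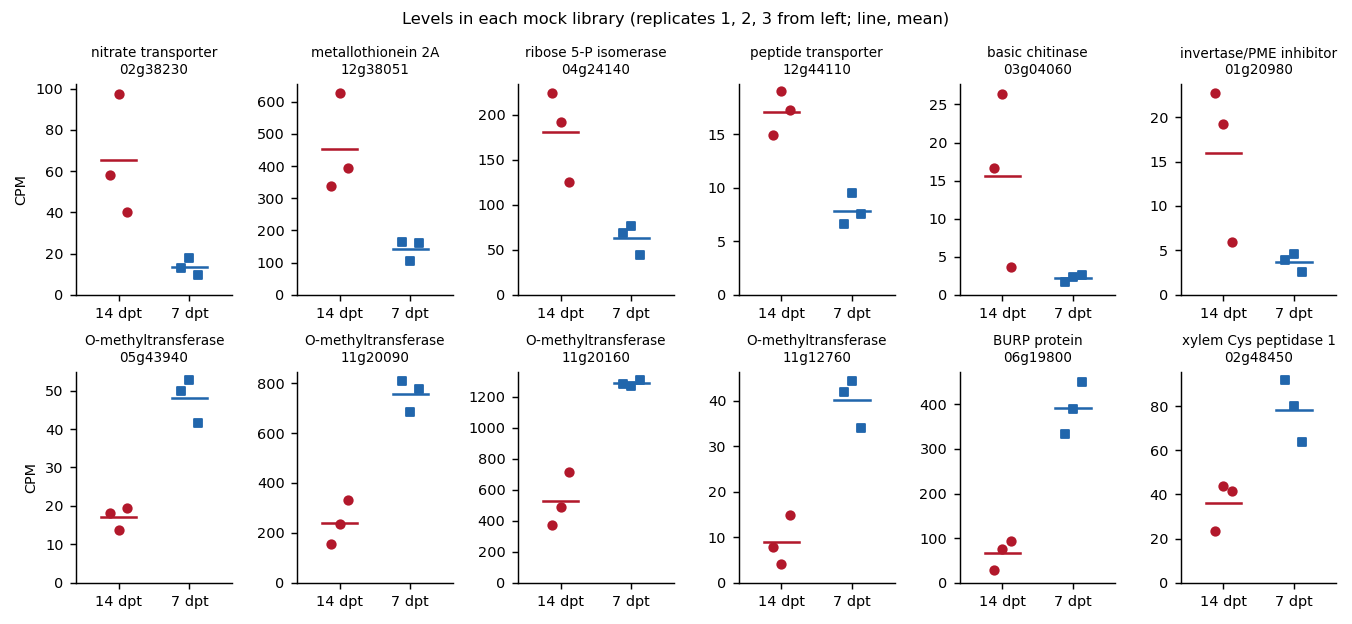
Levels in CPM of 12 named transcripts in each mock library, 14 dpt (circles) left of 7 dpt (squares), with the mean of each group as a line. The upper row has 6 transcripts with all 14 dpt libraries above 7 dpt and the lower row 6 with all below; 1 library of 14 dpt lies near the 7 dpt range for the chitinase (3.69 CPM, against up to 2.62 CPM at 7 dpt).

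Of the transcripts with no name, 2 in each direction with the lowest p are given. LOC_Os10g36610.1 was at 29.3, 23.4 and 20.9 CPM in mock 14 dpt roots, against 8.85, 10.2 and 10.03 CPM at 7 dpt (log2 fold change 1.34). LOC_Os06g11450.1 had 30.4, 34.7 and 30.0 CPM in mock 14 dpt roots and 14.4, 20.9 and 15.5 CPM at 7 dpt (0.90). LOC_Os11g10590.1 was at 14.9, 14.2 and 13.5 CPM in mock 14 dpt roots, against 26.2, 31.9 and 31.2 CPM at 7 dpt (-1.07). The abundant LOC_Os06g32020.1 had 556, 475 and 362 CPM in mock 14 dpt roots and 1162, 1360 and 952 CPM at 7 dpt (-1.32). DESeq2 called the first, the third and the last of these, and 16 of its 19 calls were of transcripts whose groups did not overlap.

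All 4 response regulators with a name had negative fold changes in mock roots. All 4 stand in the study's list as lower in 2,4-D roots, where 863 of 978 tested members were negative. Their shared sign is therefore not independent evidence. Response regulator 9 (LOC_Os12g04500.1) was at 11.3, 20.3 and 22.5 CPM in mock 14 dpt roots, against 56.4, 30.3 and 64.8 CPM in mock 7 dpt roots, a log2 fold change of -1.49 (interval -2.42 to -0.55). A second transcript named response regulator 9 (LOC_Os01g72330.1) was at 28.6, 52.3 and 75.1 CPM in mock 14 dpt roots, against 113, 71.4 and 140 CPM in mock 7 dpt roots (log2 fold change -1.05, interval -2.05 to -0.06). The groups did not overlap for the first and overlapped for the second, through the third library of 14 dpt. Response regulator 3 (LOC_Os02g35180.1) had 29.2, 30.2 and 77.0 CPM in mock 14 dpt roots, against 68.6, 69.2 and 153 CPM at 7 dpt, and response regulator 6 (LOC_Os04g57720.1) had 8.34, 25.5 and 24.1 CPM in mock 14 dpt roots, against 38.2, 44.5 and 25.1 CPM at 7 dpt. Both overlapped, and the intervals of both took in no difference (-2.35 to 0.16 for LOC_Os02g35180.1, -2.01 to 0.22 for LOC_Os04g57720.1). A histidine kinase (LOC_Os03g50860.1) that the study discussed was at 93.4, 103 and 98.1 CPM in mock 14 dpt roots, against 138, 93 and 105 CPM at 7 dpt, with a log2 fold change of -0.19 and an interval of -0.64 to 0.26, within 2-fold.

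In 2,4-D roots the same 4 response regulators had positive fold changes over the same interval of time. Response regulator 9 (LOC_Os12g04500.1) had 45.2, 21.9 and 29.5 CPM in 2,4-D 14 dpt roots, against 11, 17.3 and 12.1 CPM in 2,4-D 7 dpt roots, a log2 fold change of 1.23. The difference between the mock and the 2,4-D fold change was -2.77 (95% interval -3.97 to -1.56), the lowest unadjusted p of the 14522 transcripts in that test. For response regulators 6 (LOC_Os04g57720.1), 3 (LOC_Os02g35180.1) and 9 (LOC_Os01g72330.1) it was -2.47, -2.0 and -1.71. All 4 had an unadjusted p under 0.05 for this difference, where 567 transcripts (3.9%) did and 203 (1.4%) were negative, and none passed in edgeR, whose lowest adjusted p was 0.934. DESeq2 called 1 transcript of the 14522, response regulator 9 (LOC_Os12g04500.1), with an adjusted p of 0.0159 and a difference of -2.78 ± 0.57 (SE). All 4 stand in the study's list as lower in 2,4-D than in mock roots at 7 dpt, and the same 7 dpt libraries enter this difference, so its sign is independent evidence for none of the 4, LOC_Os12g04500.1 and its DESeq2 call included.

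Across the 3 mock ages all 4 response regulators had their lowest mean at 14 dpt. Mean levels at 1, 7 and 14 dpt were 40.0, 50.5 and 18.0 CPM for LOC_Os12g04500.1, and 142, 108 and 52.0 CPM for LOC_Os01g72330.1. They were 93.2, 96.9 and 45.5 CPM for LOC_Os02g35180.1 and 29.0, 35.9 and 19.3 CPM for LOC_Os04g57720.1. The 14 dpt libraries of LOC_Os12g04500.1 did not overlap those of either earlier age.

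**Figure D4:**
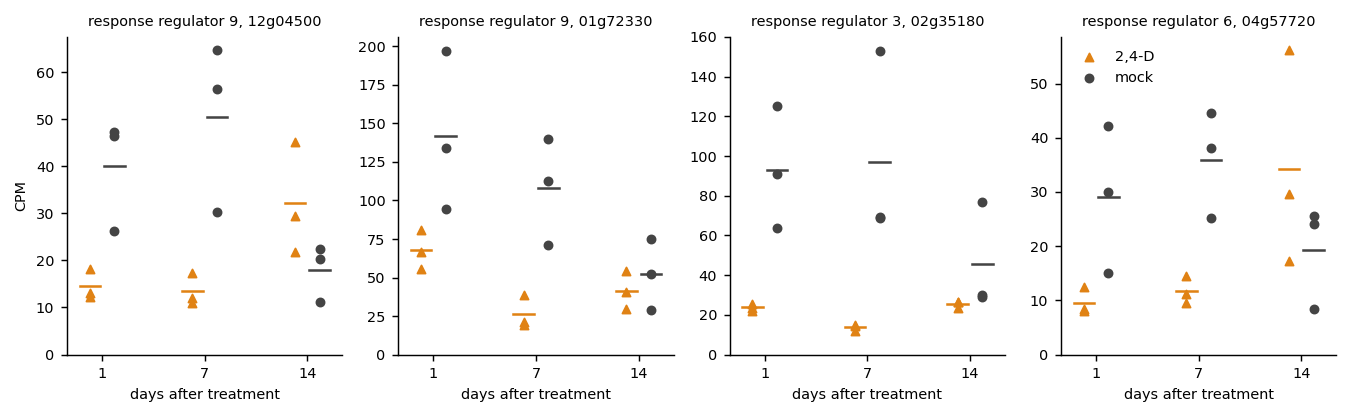
Levels in CPM of 4 response regulators in every library at 1, 7 and 14 days after treatment, 2,4-D (triangles) left of mock (circles), with group means as lines. At 14 dpt the mean of LOC_Os12g04500.1 was 32.2 CPM in 2,4-D and 18.0 CPM in mock roots, while at 7 dpt it was 13.5 CPM in 2,4-D and 50.5 CPM in mock roots.

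No transcript passed between 14 and 7 dpt in 2,4-D roots either. edgeR called 0 of 13141 (0%), with 420 at an unadjusted p under 0.05 (3.2%), limma-voom 0 with 373, and DESeq2 9, of which 1 was higher and 8 lower at 14 dpt. The test of the difference between the mock and the 2,4-D change also called 0 of 14522 in edgeR (0%) and 0 in limma-voom, which held 299 at an unadjusted p under 0.05. Values in 2,4-D roots of 3 transcripts described above, which were chosen for their difference in mock roots, are given beside them. The transcript named as a nitrate transporter (LOC_Os02g38230.1) had means of 324 CPM in 2,4-D 14 dpt and 266 CPM in 2,4-D 7 dpt roots (log2 fold change 0.27). Ribose 5-phosphate isomerase (LOC_Os04g24140.1) had 199 CPM in 2,4-D 14 dpt and 159 CPM in 2,4-D 7 dpt roots (0.30). Metallothionein 2A (LOC_Os12g38051.1) had 85.1 CPM in 2,4-D 14 dpt and 45 CPM in 2,4-D 7 dpt roots (0.89), the same sign as in mock roots. The difference of the changes was 1.96 for LOC_Os02g38230.1 with an interval of -0.71 to 4.63, so that for this transcript a difference in either direction fits the data.

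None of the transcripts the study followed by RT-PCR or discussed by name passed the test. Of 14 transcripts measured by RT-PCR, 6 passed the level filter. WRKY70 (LOC_Os03g21710.1), a transcription factor of salicylate and jasmonate signalling in Arabidopsis, was at 17.9, 77.0 and 8.18 CPM in mock 14 dpt roots, against 3.16, 23.8 and 6.75 CPM in mock 7 dpt roots. An early nodulin-like protein (LOC_Os08g37660.1) was at 12.4, 237 and 3.26 CPM in mock 14 dpt roots, against 2.78, 23.8 and 5.15 CPM at 7 dpt. In both the second library was the highest of each age and the groups overlapped, and without the second 14 dpt library the log2 fold change of LOC_Os08g37660.1 was -0.44, against 2.99 with it. Wall-associated kinase 3 (LOC_Os04g51040.1) had 12.5, 12.9 and 0.492 CPM in mock 14 dpt roots and 1.55, 0.798 and 1.59 CPM at 7 dpt, so that 1 library of 14 dpt lay below all of 7 dpt. Log2 fold changes of an ethylene-forming enzyme (LOC_Os09g27820.1), a phytosulfokine precursor (LOC_Os12g05260.1) and a dynamin-like protein (LOC_Os09g39960.1) were 1.41, 0.55 and 0.61, each with an interval that took in 0.

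Components of the common symbiosis pathway, by which legumes admit nodule bacteria and many plants, rice included, admit mycorrhizal fungi, overlapped between the ages. OsDMI3 (LOC_Os05g41090.1), the calcium- and calmodulin-dependent kinase of that pathway, had 55.2, 49.6 and 28.3 CPM in mock 14 dpt roots, against 48.4, 33.6 and 26.0 CPM in mock 7 dpt roots, a log2 fold change of 0.30 with an interval of -0.52 to 1.12. Its partner OsIPD3 (LOC_Os06g02520.1) had 45.1, 22.4 and 15.4 CPM in mock 14 dpt roots and 31.2, 23.0 and 11.4 CPM at 7 dpt, with an interval of -0.92 to 1.59. The ion channel OsPOLLUX (LOC_Os01g64980.1) was at 1.13, 1.39 and 1.23 CPM in mock 14 dpt roots and 1.61, 0.737 and 1.22 CPM in mock 7 dpt roots, under the filter. The bounds of OsDMI3 and OsIPD3 do not reach a 4-fold difference, and that of OsDMI3 barely passes 2-fold.

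The auxin genes that the study discussed also overlapped between the ages. GH3 proteins conjugate auxin to amino acids, and the GH3 transcript LOC_Os01g55940.1 was at 81.4, 54.1 and 82.1 CPM in mock 14 dpt roots, against 61.5, 41.8 and 66.7 CPM at 7 dpt, with an interval of -0.27 to 0.98 on the log2 scale. YUCCA 3 (LOC_Os04g03980.1), an enzyme of auxin synthesis, had 52.6, 64.2 and 85.8 CPM in mock 14 dpt roots and 99.4, 90.0 and 68.9 CPM at 7 dpt, with an interval of -0.94 to 0.23. Both intervals lay within 2-fold. A second GH3 transcript (LOC_Os07g40290.1) was at 35.5, 122 and 22.5 CPM in mock 14 dpt roots, against 23.9, 31.8 and 23.1 CPM at 7 dpt, where the second 14 dpt library set the mean. Of 51 such discussed transcripts that passed the filter (of 81 in all), 16 had intervals within 2-fold.

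Of the 51 discussed transcripts that were tested, 9 (17.6%) did not overlap between the ages, 3 above and 6 below at 14 dpt, against 6.23% of all tested transcripts. All 9 stand in the study's list in the same direction, so this share is not independent evidence. Aquaporin NIP1-1 (LOC_Os02g13870.1), a channel of the nodulin-26-like family, was at 98.8, 26.5 and 20.1 CPM in mock 14 dpt roots, against 14.2, 13.7 and 8.24 CPM in mock 7 dpt roots, with the first 14 dpt library far above its mates. A nodulin MtN3 family protein (LOC_Os01g36070.1) was at 56.9, 52.1 and 63.1 CPM in mock 14 dpt roots and 82.8, 76.3 and 95.5 CPM at 7 dpt (log2 fold change -0.56, interval -0.95 to -0.18). Its interval lay within 2-fold. Of 4 STRUBBELIG-family receptors, kinases of tissue patterning in Arabidopsis, LOC_Os10g25090.1, LOC_Os05g25540.1 and LOC_Os02g04430.1 had all 14 dpt libraries below 7 dpt (log2 fold changes -0.58, -0.63 and -0.75), and LOC_Os06g42800.1 overlapped. All 4 are in the study's list as lower in 2,4-D roots, where 13.4% of members had all 14 dpt libraries below, against 2.91% of all tested transcripts. A MATE efflux protein (LOC_Os08g43654.1) had 11.5, 16.9 and 34.6 CPM in mock 14 dpt roots and 61.9, 59.8 and 37.6 CPM at 7 dpt, and the remaining 3 of the 9 were an ABA receptor component (LOC_Os05g12260.1), an ABC-2 transporter (LOC_Os05g02890.1) and a major facilitator protein (LOC_Os03g11900.1). The major facilitator protein (LOC_Os03g11900.1) had 95.6, 323 and 72.5 CPM in mock 14 dpt roots and 68.6, 55.1 and 49.5 CPM at 7 dpt, with the second 14 dpt library far above its mates. A BAK1-interacting kinase (LOC_Os05g34270.1) overlapped at 95.8, 210 and 55.2 CPM in mock 14 dpt roots against 42.7, 53.2 and 61.6 CPM at 7 dpt.

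Gene groups were read from 29 lists of named transcripts, of which none had a member called by edgeR. Each list is given by its median log2 fold change and by how many of its members had all 14 dpt libraries above or below those of 7 dpt, beside the 0.01, 3.32% and 2.91% of all tested transcripts. The study's list itself sets these medians in part: its 609 tested members that were higher in 2,4-D roots at 7 dpt had a median of 0.51, its 978 lower members had -0.37, and the 11631 transcripts outside it had 0.01. In the same way, 71 of the 609 higher members (11.7%) had all 14 dpt libraries above 7 dpt, and 131 of the 978 lower members (13.4%) had all below, and these are the shares to set beside the counts of a list drawn mostly from one of them. Every list median and count below is therefore no independent evidence of its direction. Most of the lists with a median under 0 were drawn mostly from the lower members. All 28 lists with 3 or more tested members had a median that moved by over 1.5 times, or changed sign, when some single library was left out.

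Groups of the wall and the root barriers had medians under 0. The secondary wall list had 22 of 24 tested members negative and a median of -0.40, with none not overlapping. Cellulose synthase A4 (LOC_Os10g32980.1), a subunit of the secondary-wall cellulose complex, was at 250, 189 and 318 CPM in mock 14 dpt roots, against 424, 417 and 175 CPM in mock 7 dpt roots. The cellulose synthase LOC_Os09g25490.1 had 251, 157 and 274 CPM in mock 14 dpt roots and 384, 398 and 180 CPM at 7 dpt. In both the third 7 dpt library was well below its mates and within or under the 14 dpt range. The list median was -0.10 without mock 7 dpt replicate 1 and -0.61 without mock 14 dpt replicate 3.

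Lignin and phenylpropanoid enzymes were mixed within the list. The median of 28 tested members was -0.34, with 4 not overlapping and lower at 14 dpt and 0 higher. It was -0.02 without mock 7 dpt replicate 1 and -0.54 without mock 14 dpt replicate 3. Of the 28, 25 were in the study's list as lower in 2,4-D roots. Phenylalanine ammonia-lyase 1 (LOC_Os04g43800.1), which opens the pathway, was at 34.1, 49.0 and 7.94 CPM in mock 14 dpt roots, against 7.94, 7.37 and 3.84 CPM in mock 7 dpt roots, opposite to cinnamoyl CoA reductase 1 (LOC_Os09g09270.1). The third of its 14 dpt libraries touched the top of the 7 dpt range. The Casparian strip and suberin list, 33 tested, had a median of -0.30 with 6 members below and 0 above, and -0.09 without mock 7 dpt replicate 1 and -0.66 without mock 14 dpt replicate 3. Of the 33, 30 were lower in the study's list. Class III peroxidases, 35 tested, had a median of -0.01 with 1 above and 2 below. Expansins and xyloglucan enzymes, 17 tested, had -0.31 with 1 below, and lipid transfer proteins, 15 tested, had -0.53 with none not overlapping. In the study's list 11 of the 17 were higher and 6 lower, while 14 of the 15 lipid transfer proteins were lower.

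Transport and nutrition lists were split between directions. Nitrogen transport and assimilation, 11 tested, had a median of 0.09 with 2 members above, among them LOC_Os02g38230.1, named as a nitrate transporter. Mineral nutrition, 26 tested, had a median of -0.22 with 3 above and 4 below. Of the 26, 20 were lower in the study's list. Phosphate transporter 4;1 (LOC_Os01g17240.1) was at 15.5, 11.8 and 11.2 CPM in mock 14 dpt roots, against 3.16, 8.17 and 7.03 CPM at 7 dpt, and zinc induced facilitator-like 2 (LOC_Os12g03899.1) had 21.5, 26.2 and 22.2 CPM in mock 14 dpt roots and 10.7, 17.7 and 14.1 CPM at 7 dpt. Purple acid phosphatase 27 (LOC_Os08g41880.1), of a family that frees phosphate from organic compounds, had 121, 199 and 252 CPM in mock 14 dpt roots, against 368, 283 and 443 CPM at 7 dpt. Thus 2 of these lay above and 1 below with no overlap between the ages.

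Water channels and sugar genes had medians under 0 as well. Aquaporins, 10 tested, had -0.48 with 1 above, which is NIP1-1 (LOC_Os02g13870.1), and 0 below. Delta tonoplast integral protein (LOC_Os06g22960.1), a water channel of the vacuole membrane, was at 352, 264 and 478 CPM in mock 14 dpt roots and 377, 641 and 1255 CPM in mock 7 dpt roots, where the third 7 dpt library was far above the other two. Peptide transporters, 14 tested, had a median of -0.41 with 1 above and 2 below. In the study's list 9 of the 10 aquaporins and 11 of the 14 peptide transporters were lower. Sugar transport and starch, 27 tested, had -0.15 with 1 above and 3 below, including sucrose synthase 6 (LOC_Os02g58480.1), an enzyme that splits sucrose, at 25.5, 23.9 and 18.0 CPM in mock 14 dpt roots against 35.1, 47.7 and 32.2 CPM at 7 dpt.

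Of the defence lists, 3 had medians over 0. All 3 medians were smaller without mock 14 dpt replicate 2 and larger without mock 14 dpt replicate 3. Cysteine-rich and lectin receptor kinases had 25 of 30 tested members positive, and 5 above and 1 below without overlap. Their median was 0.67, with 0.40 without mock 14 dpt replicate 2 and 1.01 without mock 14 dpt replicate 3. The 45 members of the list summed to 937, 921 and 552 CPM in mock 14 dpt roots, against 505, 513 and 569 CPM at 7 dpt. The first and second 14 dpt libraries were thus alike in this sum, and the third was the lowest of its age. Of the 30, 22 were in the study's list as higher in 2,4-D roots, a set where 503 of 609 tested members were positive. The 7 WRKY factors, 5 of them higher in the study's list, had a median of 1.07 with 1 above. This median was 0.22 without mock 14 dpt replicate 2 and 1.35 without mock 14 dpt replicate 3. WRKY factor LOC_Os01g14440.1 shows the shape, at 165, 433 and 136 CPM in mock 14 dpt roots and 65.6, 165 and 118 CPM at 7 dpt. Chitinases, thaumatins and glucanases, 16 tested, had a median of 0.36 with 2 above and 1 below. It was -0.06 without mock 14 dpt replicate 2 and 0.93 without mock 14 dpt replicate 3. Of the 16, 11 were higher in the study's list. Chitinase A (LOC_Os01g47070.1) was at 133, 201 and 43.4 CPM in mock 14 dpt roots, against 21.6, 43.6 and 39.7 CPM in mock 7 dpt roots. In mock 14 dpt replicate 2 the median WRKY factor was 1.5 log2 units above the mean of its 2 mates. The median secondary wall member was 0.63 below that mean, and whether these share a source was not tested. NB-ARC resistance proteins, 39 tested, had a median of -0.08 with 0 above and 4 below. Of the 39, 25 were lower in the study's list.

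The hormone lists lay near the background median, while regulatory and metabolic lists ranged as widely as those of the wall. Auxin response and transport, 16 tested, had a median of 0.06 with none not overlapping, and other hormones, 28 tested, had -0.08 with 0 above and 1 below, the response regulator LOC_Os12g04500.1. Both lists were mixed by source. In the study's list 9 of the 16 were higher and 7 lower, and 14 of the 28 were higher and 14 lower. MYB factors, 22 tested, had -0.31 with 3 below, among them MYB52 (LOC_Os11g10130.1) at 35.7, 18.8 and 36.2 CPM in mock 14 dpt roots against 55.3, 47.7 and 55.7 CPM at 7 dpt. MYB61 (LOC_Os01g18240.1) had 32.3, 21.6 and 32.7 CPM in mock 14 dpt roots and 54.9, 42.4 and 37.2 CPM at 7 dpt. Of the 22 MYB factors, 17 were lower in the study's list. Leucine-rich repeat kinases, 41 tested, had -0.20 with 1 above and 3 below, and proteases, 33 tested, had -0.23 with 2 above and 6 below. In the study's list 23 of the 41 kinases and 22 of the 33 proteases were lower. Terpenoid and cytochrome P450 enzymes, 32 tested, had -0.19 with 5 below. Glutathione transferases and UDP-glycosyltransferases, 30 tested, had -0.51 with 1 above and 5 below. Of these, 23 of the 32 and 22 of the 30 were lower in the study's list. Medians of the meristem and cell division (18 tested), NAC (14), AP2/ERF (10) and bHLH (13) lists were -0.13, -0.03, 0.22 and -0.26, each with at most 1 member not overlapping in a direction.

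**Figure D5:**
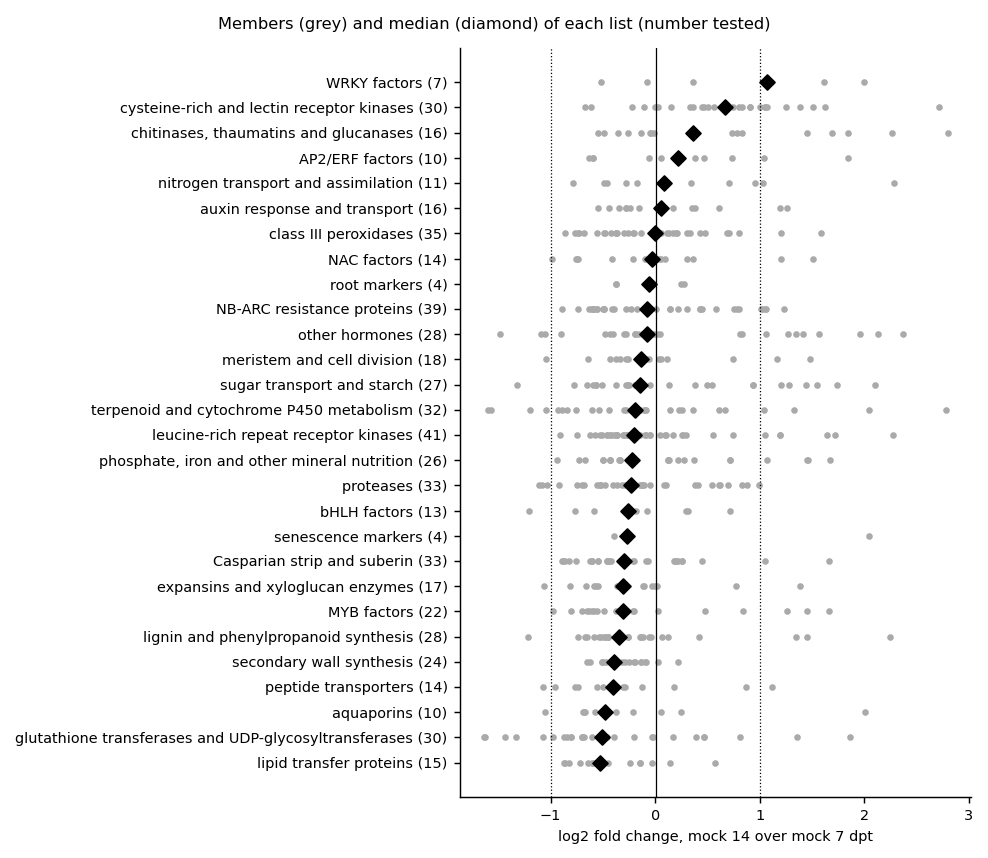
Log2 fold change, mock 14 dpt over mock 7 dpt roots, of the members (grey) of each list with 3 or more tested transcripts and their median (diamond), with the number tested in brackets and dotted lines at 2-fold. Medians run between -0.53 for lipid transfer proteins and 1.07 for the 7 WRKY factors, and single members spread over more than 2-fold in most lists.

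Summed over 4 markers each, leaf and chloroplast markers were low beside root markers in all 6 libraries. The 4 leaf and chloroplast markers summed to 24.0, 66.1 and 29.7 CPM in mock 14 dpt roots, against 18.3, 33.6 and 20.3 CPM in mock 7 dpt roots, with the second library the highest of each age and no marker at 0. The 1 leaf marker that passed the filter, the chaperonin-like RbcX protein (LOC_Os07g38230.1), was at 11.7, 23.4 and 12.9 CPM in mock 14 dpt roots, against 6.78, 11.3 and 6.37 CPM in mock 7 dpt roots, a log2 fold change of 0.97 (interval 0.04 to 1.90). Its groups did not overlap, and its unadjusted p was under 0.05 in edgeR while its adjusted p was 0.998. The 4 root markers, such as aquaporin NIP2-1 (LOC_Os02g51110.1), a silicon channel of the root, summed to 1674, 1046 and 1928 CPM in mock 14 dpt roots and 1552, 1195 and 1423 CPM in mock 7 dpt roots. The second 14 dpt library had the lowest sum of root markers and the highest of leaf markers, and their part in the defence list medians was not tested. Most of the root sum was NIP2-1 (LOC_Os02g51110.1) alone. All 4 root markers stand in the study's list as lower in 2,4-D than in mock roots at 7 dpt, and the 1 tested leaf marker as higher. The root marker STELAR K+ outward rectifier (LOC_Os06g14030.1) was higher in the second 14 dpt library than in the first. Of 4 senescence markers, 3 were slightly negative and only senescence-associated gene 21 (LOC_Os01g21250.1) was positive, through the second 14 dpt library.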

How the data were processed

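Roots were profiled by RNA-seq, and the authors deposited one table of raw read counts per transcript for 18 libraries, made per the labels and the study's methods with featureCounts in Rsubread on the MSU version 7 rice annotation. How reads matching several genes were handled, and whether strand was used, is not given in the sources used here. No column was left unmapped. From the counts, the 6 mock libraries of 14 and 7 dpt were fitted with edgeR 4.0.16 (TMM factors, glmQLFit and glmQLFTest, R 4.3.3) over transcripts with at least 10 CPM in at least 2 libraries. Calls needed a Benjamini-Hochberg adjusted p under 0.05 and a log2 fold change of at least 1 in size. limma 3.58.1 (voom) and DESeq2 1.42.0 were alternatives, as were other scalings and filters, counts summed by locus, a replicate block, larger fits and leaving out each library. The 2,4-D and difference tests were fitted the same way on 6 and 12 libraries. CPM of mock 14 and 7 dpt roots use the counts of tested transcripts (96.2% to 96.8% of each library) and factors of the 6 libraries. CPM of other groups use library totals and factors over all 18, so the 2 scales differ slightly. The 10 CPM filter uses library totals alone. The 15 named transcripts with the lowest p among those with no overlap are described in each direction, with transcripts the study discussed or measured by RT-PCR and 2 unnamed in each direction. Members, lists and rules were chosen with earlier results of these data known. Replicates are 3 biological samples a group, and p-values measure the spread between them. Scripts were tested on simulated data. Total counts were 11195978 to 17582306, and each interval rests on the spread between replicates, which was far above counting noise. No reference sequence was used here.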

Additional observations from a re-analysis of the deposited data

How the results depend on the processing

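edgeR called 0 transcripts under every alternative: size factors as in DESeq2 (394 at an unadjusted p under 0.05), library totals alone (365), a filter at 1 CPM (764 of 22177 tested), no filter (1142 of 41631), filterByExpr (757 of 22826), sums by locus (381 of 13241), the fit over 12 libraries (525 of 14522) and over all 18 (814 of 15149). DESeq2 called 19 for mock roots (10 higher, 9 lower), 9 for 2,4-D roots (1 higher, 8 lower) and 1 for the difference (0 higher, 1 lower), 10 of the named transcripts, and members of 3 lists (nitrogen, mineral nutrition and peptide transporters). The cause was not tested. In the mock comparison DESeq2 gave no adjusted p for 1166 transcripts, which count as not called.

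With the replicate block 0 were called and 514 had an unadjusted p under 0.05. The labels give shared numbers but no shared origin. Each library was taken as its deviation from the mean of its age. These deviations correlated at 0.169, 0.545 and 0.032 for same-numbered libraries, and 0.545 was the highest of all pairs. Mock 7 dpt replicate 1 was closest to mock 14 dpt replicate 3 (0.295), while mock 14 dpt replicate 1 was closest to mock 7 dpt replicate 1 (0.169). Whether the numbers mark pairs cannot be told from these values, and the main fit did not take them as pairs.

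Leaving out 1 library gave 0 calls each time, with 221 (without mock 7 dpt replicate 1) to 1095 (without mock 14 dpt replicate 3) at an unadjusted p under 0.05. Without mock 14 dpt replicate 3 the lowest adjusted p in edgeR was 0.266. The log2 fold change turned sign for 4 described transcripts: LOC_Os08g37660.1 (range -0.44 to 4.42), LOC_Os03g08320.1 (-0.039 to 2.91) and CRINKLY4 related 4 LOC_Os11g44430.1 (-0.18 to 2.31), each without mock 14 dpt replicate 2, and LOC_Os06g02520.1 (-0.21 to 0.68) without mock 14 dpt replicate 1. The median of 10 lists changed sign under some setting.

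With 3 libraries a group and a median standard error of 0.26, smaller differences could not be told from the spread between libraries for many transcripts.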

Other observations

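Other transcripts, chosen after their values were seen, show the same shape as the defence genes. CRINKLY4 related 4 (LOC_Os11g44430.1), a receptor-like kinase, was at 57.2, 463 and 45.1 CPM in mock 14 dpt roots, against 34, 97.8 and 42.4 CPM in mock 7 dpt roots. A SAUR-like auxin-responsive protein (LOC_Os10g36703.1) had 156, 554 and 87.9 CPM in mock 14 dpt roots and 70.8, 193 and 69.0 CPM at 7 dpt. In both the second library was the highest of its age, and the groups overlapped.

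The 2 root markers given here overlapped between the ages. STELAR K+ outward rectifier (LOC_Os06g14030.1), a channel that loads potassium into the xylem in Arabidopsis, was at 88.6, 132 and 172 CPM in mock 14 dpt roots and 181, 156 and 173 CPM in mock 7 dpt roots, with a log2 interval of -1.0 to 0.24. Aquaporin NIP2-1 (LOC_Os02g51110.1) had 1484, 861 and 1661 CPM in mock 14 dpt roots and 1265, 934 and 1168 CPM at 7 dpt, with an interval of -0.46 to 0.96.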
